A study of Mus musculus with 9 samples.

Results

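The genes described here encode the hemidesmosome and chains of its laminin ligand, and the question is where Sox2 chromatin immunoprecipitation and sequencing (ChIP-seq) found binding near them in mouse lung epithelial cells. The 9 genes were listed by name (Lama3, Lamb3, Itga6, Itgb4, Itga3, Col17a1, Cd151, Plec and Dst), out of 21887 protein-coding genes with a position in the RefSeq annotation of mm10. A gene was counted when the summit of a listed peak, the base of highest enrichment, fell within the gene or no more than 50 kb from either end. Sox2 is needed for the conducting airways and the oesophagus to form, while Nkx2-1 is required for lung identity. Of 9 libraries in the series, the 3 made with the Sox2 antibody were used, from cells with ectopic Sox2 expression and deletion of Nkx2-1, cells with ectopic Sox2 expression alone, and wildtype cells. All were C57BL/6 with an age of 8 weeks, and were immunoprecipitated with a goat antibody against Sox2. The labels say neither how Sox2 was expressed or Nkx2-1 deleted, nor whether cells were cultured or pooled. A peak list has no expression values, so neither the alleles nor the cell type could be checked in it. Each condition has 1 library, so no test between conditions was possible, and intervals cover counting error only.

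Hemidesmosomes anchor basal epithelial cells to the basement membrane. Outside the cell, laminin-332, which holds the chains encoded by Lama3 and Lamb3, is bound by the integrin that Itga6 and Itgb4 encode. Inside, the plakins encoded by Plec and Dst join that integrin and the transmembrane collagen of Col17a1 to keratin filaments. In the lung, hemidesmosomes are a feature of the basal cells of the conducting airways.

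The list with Nkx2-1 deletion held 2589 summits, that with ectopic Sox2 alone 229, and that of wildtype 552. ChIP depth, recovered from the listed values, was a mean of 1.45 fragments per position after Nkx2-1 deletion, 0.764 in the ectopic Sox2 library and 0.963 in wildtype. A longer or deeper list places more genes of any kind near a summit, so counts are given with the share of all protein-coding genes near a summit in the same list.

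With Nkx2-1 deletion, 4 of the 9 genes had a summit within 50 kb: Lama3, Itga6, Col17a1 and Dst. This is 44.4% of the genes, where 13.1% of all protein-coding genes had one. With ectopic Sox2 alone none of the 9 had one, where 1.53% of all genes did, so a count of 0 among 9 genes is near the background. In wildtype, 2 of the 9 (Lama3 and Col17a1) had a summit, or 22.2%, against 2.85% of all genes. Taking the 3 lists together, the count was 4 of 9, against 14.7% of all genes. Lamb3, Itgb4, Itga3, Cd151 and Plec had none in any list. The median distance from the 9 genes to the nearest summit was 74.0 kb with Nkx2-1 deletion (400.4 kb over all genes), 3238 kb with ectopic Sox2 (4264 kb) and 2059 kb in wildtype (1853 kb).

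**Figure D1:**
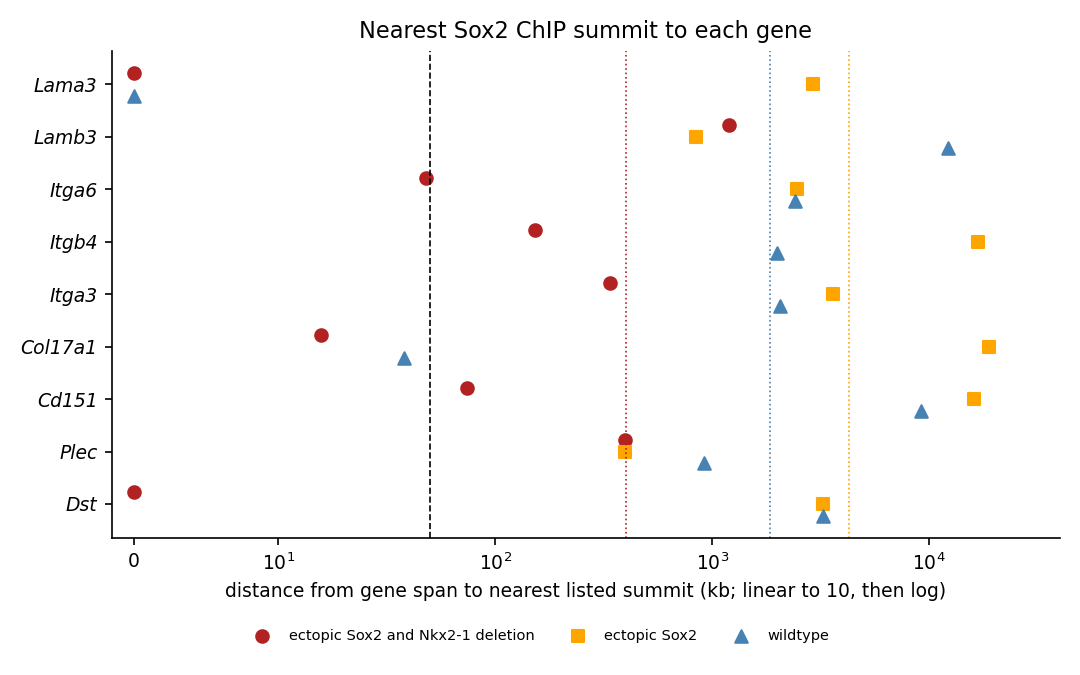
Distance in kb from each gene's span to the nearest listed summit in the 3 libraries, on a scale linear to 10 kb and logarithmic beyond, with 0 for a summit inside the gene. The dashed line marks 50 kb and dotted lines the median over all protein-coding genes in each library. With Nkx2-1 deletion 4 genes lie left of the dashed line, with ectopic Sox2 none, and in wildtype 2.

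Long genes are more often near a summit, and 2 of the 4 genes found with Nkx2-1 deletion are long. Dst spans 401 kb and Lama3 249.6 kb, and both had a summit inside the gene. Of the 990 protein-coding genes that span at least 200 kb, 34.2% had a summit in range in that list and 29.5% had one inside. The other 7 genes span under 200 kb, and 2 of them had a summit, against 12.1% of all genes of that size. Per length, the windows around the 9 genes together cover 1.85 Mb and held 4 summits with Nkx2-1 deletion, or 2.16 per Mb, against 1.18 per Mb in the windows of all protein-coding genes. In wildtype they held 2 summits, or 1.08 per Mb, against 0.231.

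Lama3, which encodes the α chain of laminin-332, was the only 1 of the 9 genes with a summit inside its span in 2 lists, at separate places. It lies on chromosome 18, 12333417 to 12583013. With Nkx2-1 deletion the region at 12503896 to 12504100 rested on 35 ChIP fragments (95% Poisson interval 24.4 to 48.7), with a fold enrichment over the local control of 5.27, a value of the authors' peak caller. In wildtype the region at 12505388 to 12505597 rested on 27 fragments (17.8 to 39.3), with a fold of 5.25. The 2 summits lay 1578 bp apart, 68.3% and 69.0% of the way along the span from its low-coordinate end, and 1287 bp separated the regions. The first also falls in the span of the long noncoding RNA gene Gm29200. Exons and introns could not be told apart with the annotation used.

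Lamb3, which encodes the β chain, was far from every listed summit. The nearest lay 1195 kb away with Nkx2-1 deletion, 844 kb with ectopic Sox2 and 12177 kb in wildtype.

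Of the integrin genes among the 9, Itga6 alone had a summit within 50 kb. Itga6 encodes the α6 subunit of the hemidesmosome integrin and lies on chromosome 2, 71786886 to 71858427. With Nkx2-1 deletion the region at 71738720 to 71738920 rested on 24 fragments (15.4 to 35.7), with a fold of 5.58. It lay 48.0 kb from the gene, just inside the window, in the span of the long noncoding RNA gene Gm17250, and no other protein-coding gene lay within 50 kb. The nearest summit was 2465 kb away with ectopic Sox2 and 2409 kb away in wildtype. Itgb4, which encodes the β4 partner that binds the plakins, had its nearest summit 153 kb away with Nkx2-1 deletion, 16774 kb with ectopic Sox2 and 1999 kb in wildtype. Itga3, which encodes a subunit of another laminin-binding integrin, had it 339 kb away with Nkx2-1 deletion, 3606 kb in the ectopic Sox2 library and 2059 kb in wildtype. Neither gene was near a summit in any list.

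Col17a1 encodes the transmembrane collagen of the hemidesmosome and had a summit within 50 kb on either side, 1 with Nkx2-1 deletion and 1 in wildtype. The gene lies on the minus strand of chromosome 19, 47646341 to 47692042. With Nkx2-1 deletion the region at 47630309 to 47630771 lay 15.8 kb beyond the end of the gene and 61.5 kb from its start. It rested on 47 fragments (34.5 to 62.5) with a fold of 5.22, and its summit fell inside the kinase gene Slk. In wildtype the region at 47729667 to 47729868 lay 37.7 kb upstream of the start, with 21 fragments (13.0 to 32.1) and a fold of 6.90. Closer to it than Col17a1 were Sfr1 at 1.93 kb and Cfap43 at 7.07 kb, so that at neither summit was Col17a1 the nearest gene. The 2 summits lay 99.2 kb apart. A further summit with Nkx2-1 deletion lay outside the window, 86.7 kb beyond the end of the gene, with 31 fragments (21.1 to 44.0) and a fold of 5.88. With ectopic Sox2 the nearest lay 18818 kb away. The control background at the Nkx2-1 deleted summit within 50 kb was 4.88 times the genome-wide value. This equals the median over the 140 summits of chromosome 19 in that list, where the other autosomes had a median of 3.25. In wildtype it was 1.96 times, against a chromosome 19 median of 4.20. The part of the control background in these results was not tested.

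Cd151 encodes a tetraspanin that associates with laminin-binding integrins, and it lay just outside the window. With Nkx2-1 deletion its nearest summit was 74.0 kb away, inside Taldo1, with 19 fragments (11.4 to 29.7), and a fold of 4.39. That summit had 6 protein-coding genes within 50 kb, Taldo1 included. The same region had a further summit 74.3 kb away with 25 fragments (16.2 to 36.9). By −log10 q the nearer stood at 2.25 and the further at 1.67, where the list's lowest value was 1.38. They ranked 2454 and 2529 of 2589. The nearest was 16023 kb away with ectopic Sox2 and 9193 kb in wildtype.

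The plakin genes differed from each other. Dst, whose epithelial product BPAG1e links the hemidesmosome to keratins, lies on the plus strand of chromosome 1, 33907888 to 34308662. With Nkx2-1 deletion the region at 34103853 to 34104063 inside it rested on 28 fragments (18.6 to 40.5), with a fold of 5.84. The summit lay 196 kb from the low-coordinate end of the span. RefSeq promoter windows were found for 2 starts, both within the span and neither at that end. The summit lay 92.3 kb downstream of 1 of them and 56.3 kb upstream of the other. The nearest summit was 3238 kb away in both of the other lists. Plec, which encodes plectin, had its nearest summit 395 kb away both with Nkx2-1 deletion and with ectopic Sox2, and 919 kb away in wildtype.

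**Figure D2:**
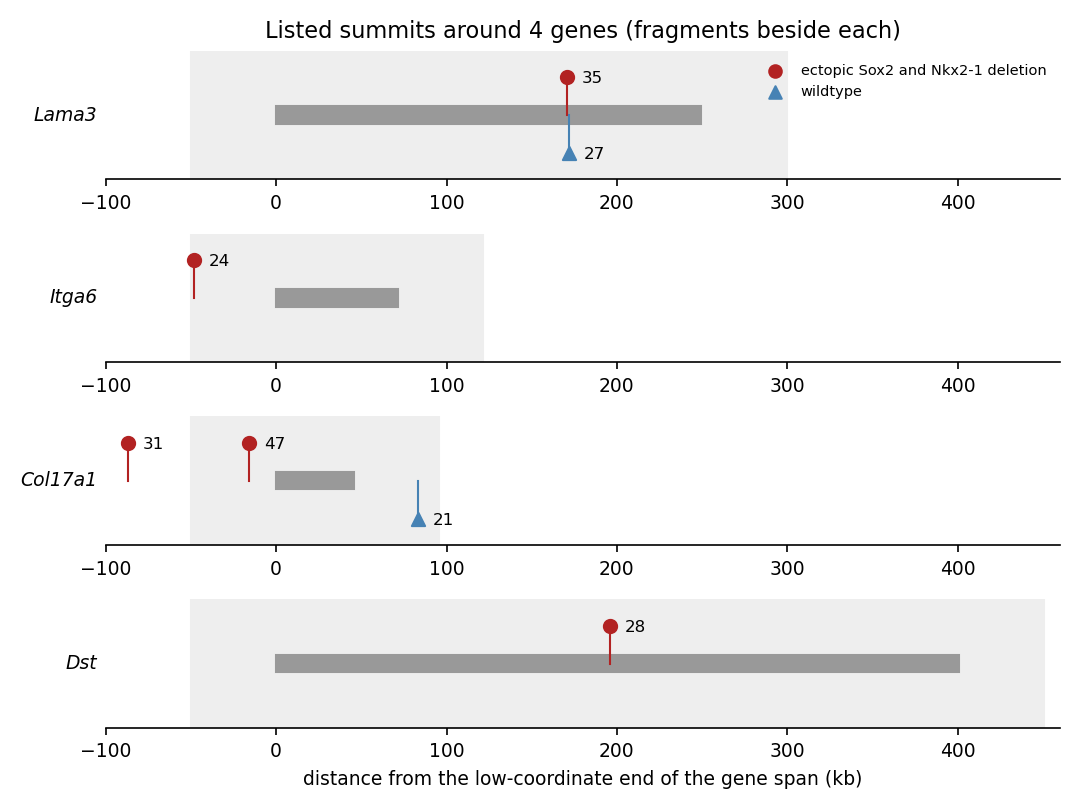
Listed summits around Lama3, Itga6, Col17a1 and Dst, drawn to scale in kb from the low-coordinate end of each gene (dark bar), with the 50 kb window shaded and the number of ChIP fragments beside each summit. Summits with Nkx2-1 deletion point up and wildtype summits down. The summits at Lama3 are 1.58 kb apart, and those within 50 kb of Col17a1 lie on opposite sides of the gene. A further Col17a1 summit with Nkx2-1 deletion, with 31 fragments, lies outside the shaded window.

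No summit near the 9 genes was shared between libraries. Of the 4 summits with Nkx2-1 deletion none overlapped a region of the ectopic Sox2 list or of the wildtype list, where 4.60% and 10.5% of all summits in that list did. Neither of the 2 wildtype summits overlapped a region with Nkx2-1 deletion or of the ectopic Sox2 list, where 49.5% and 18.3% of all wildtype summits did. With only 4 and 2 summits, counts of 0 cannot be told apart from these shares. Across all genes, 385 (1.76%) had a summit within 50 kb in both of these lists, and 81.0% of them had an overlapping region there. Lama3 and Col17a1 are among the 385 and had none. No ratio of fragments between libraries at a common region could therefore be given.

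The summits near these genes were of middling or low rank within their lists. By −log10 q, the peak caller's false discovery value, the 4 with Nkx2-1 deletion stood at 5.97 (Col17a1), 4.49 (Lama3), 4.31 (Dst) and 4.11 (Itga6), where the list's median was 5.97 and its maximum 43.7. They ranked 1290, 1711, 1783 and 1813 of 2589. Their folds had a median of 5.43 and a range of 5.22 to 5.84, against a median of 5.73 over the list. The 2 wildtype summits ranked 217 (Col17a1, −log10 q of 6.62) and 244 (Lama3, 6.09) of 552. Their fold had a median of 6.07, against 5.80 over the wildtype list. Restricted to summits whose −log10 q was 5 or more, the count with Nkx2-1 deletion was 1 of 9, Col17a1, against 8.83% of all genes, and in wildtype it was still 2 of 9, against 1.88%.

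**Figure D3:**
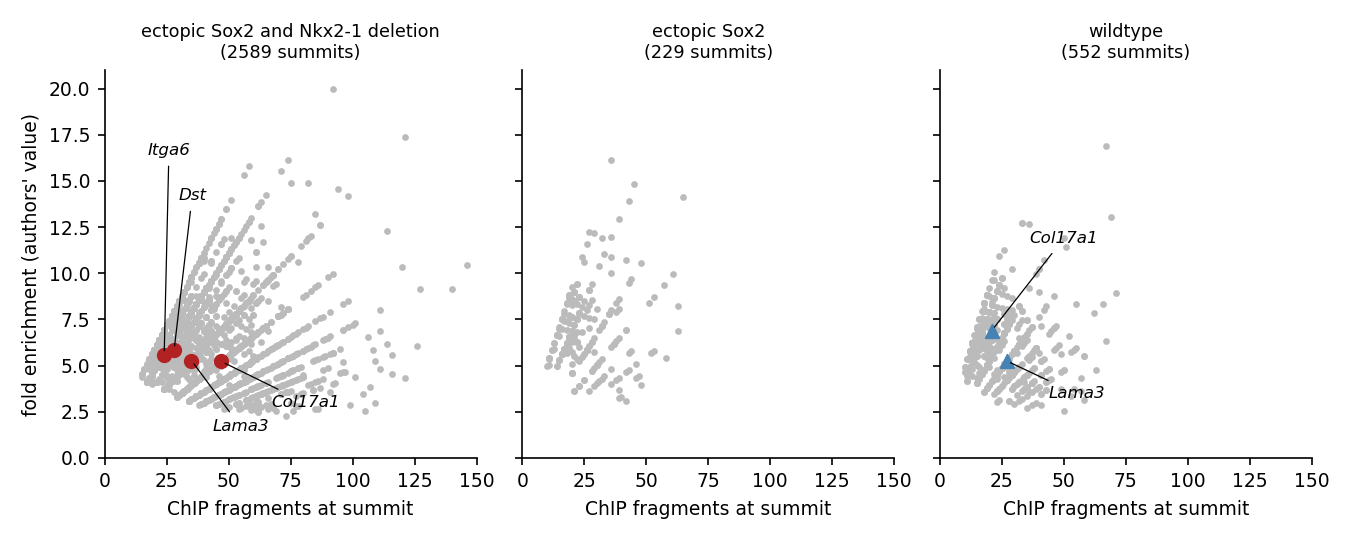
Fold enrichment, the authors' value, against ChIP fragments for every listed summit (grey) in the 3 libraries, with the summits within 50 kb of the hemidesmosome and laminin genes marked. Marked summits have folds of 5.22 to 5.84 with Nkx2-1 deletion and 5.25 to 6.90 in wildtype, and there is none with ectopic Sox2.

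Absence from the shallower ectopic Sox2 list was set against depth. Scaled to the depth of that library, the fragments with Nkx2-1 deletion came to 24.7 at Col17a1 (interval 18.2 to 32.9), 18.4 at Lama3 (12.8 to 25.6), 14.7 at Dst (9.79 to 21.3) and 12.6 at Itga6 (8.09 to 18.8). The fewest fragments at any summit in the ectopic Sox2 list were 10 and the median was 23. With the control background kept at the same multiple of the genome-wide value, these fragments gave −log10 p of 8.27, 6.91, 7.15 and 6.78, above the lowest listed value of 5.47. At the lower ends of the intervals they gave 5.11, 4.37, 4.21 and 3.75, all below it. The counting interval of each of the 4 therefore spans the level at which that list ends, and an unlisted region there is not shown to be unbound. The same held for the wildtype summits at that depth, with 4.25 at Lama3 and 4.20 at Col17a1 at the lower ends.

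Between the Nkx2-1 deletion and wildtype lists the depth differed less. Scaled to wildtype depth, the summits with Nkx2-1 deletion gave at the lower ends a −log10 p of 6.76 at Col17a1 and 5.67 at Dst, above the lowest listed wildtype value of 5.27. Lama3 (5.21) and Itga6 (4.53) were below it there. Scaled to the depth with Nkx2-1 deletion, the wildtype summits gave 5.30 at Col17a1 and 4.76 at Lama3 at the lower ends, above the lowest value of 4.70 in that list. For these Col17a1, Dst and wildtype Lama3 summits the scaled lower end lay above the level at which the other list ends, though neither list held the other's region. The scaling covers depth and the counting error of the listing library, with 1 library per condition. Counting error in the other library was left out, so an unlisted region is not shown to be unbound here either.

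**Figure D4:**
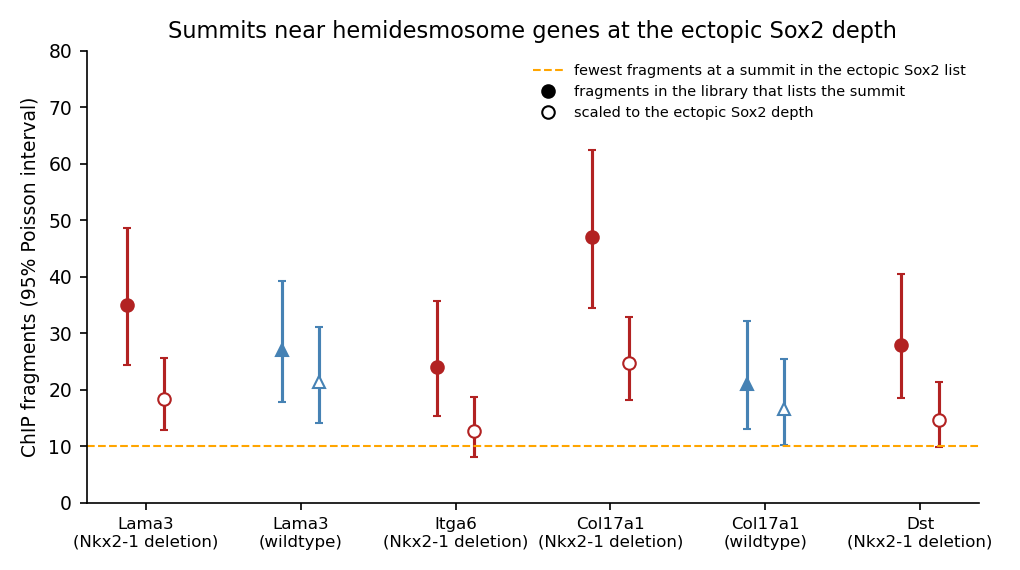
ChIP fragments at the 6 summits near the hemidesmosome and laminin genes in the library that lists each (filled) and scaled to the depth of the ectopic Sox2 library (open), with 95% Poisson intervals. The dashed line is the fewest fragments at any summit in the ectopic Sox2 list, 10, and is not the −log10 p at which that list ends. Open points lie above it, and the intervals for Itga6 and Dst with Nkx2-1 deletion reach below it.

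Genes of neighbouring structures were counted in 4 lists of 79 genes in all, of which 32 (40.5%) were near a summit after Nkx2-1 deletion, 3 (3.8%) in the ectopic Sox2 library and 6 (7.59%) in wildtype. Among all protein-coding genes, the share was 13.1% after Nkx2-1 deletion, 1.53% in the ectopic Sox2 library and 2.85% in wildtype, and the counts of each list below are to be read against these shares. The shares were not matched to the lists for gene length. Of 25 other basement membrane genes, 10 were near a summit after Nkx2-1 deletion, 1 (Lamc1) in the ectopic Sox2 library and 0 in wildtype. Within 10 kb the count after Nkx2-1 deletion was 6 (6.47% of all genes). It was 6 by nearest gene (8.51%), 6 at −log10 q of at least 5 (8.83%) and 11 within 100 kb (20.7%). The strongest by q lay inside Lama4, a laminin chain of vessels and muscle, with 53 fragments (39.7 to 69.3) and a fold of 11.7. Of 28 other integrin and focal adhesion genes, 7 were near one after Nkx2-1 deletion, 0 in the ectopic Sox2 library and 3 in wildtype. The strongest was inside Itgb8, an integrin subunit that activates TGF-β, with 90 fragments (72.4 to 111) and a fold of 9.78. Of 13 plakin and partner genes, 7 were near one after Nkx2-1 deletion, 1 (Krt5) in the ectopic Sox2 library and 0 in wildtype. They were led by Met, the hepatocyte growth factor receptor gene, with 4 summits. After Nkx2-1 deletion the count of plakin and partner genes was 1 within 10 kb (6.47% of all genes), 2 by nearest gene (8.51%) and 8 within 100 kb (20.7%). At −log10 q of at least 5 it was 4 (8.83%). Krt14 and Krt15 share 1 summit, with a −log10 q of 1.45 where the lowest in that list was 1.38. Col4a5 and Col4a6 of the basement membrane list also share 1, with a −log10 q of 2.58. These genes are therefore not independent.

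Desmosomes join epithelial cells to each other as hemidesmosomes join them to the matrix. Of 13 desmosome genes, 8 were near a summit after Nkx2-1 deletion (13.1% of all genes), 1 in the ectopic Sox2 library (1.53%) and 3 in wildtype (2.85%). The leading summit, 183 bp from the desmosomal cadherin gene Dsg3, had 59 fragments (44.9 to 76.1) and a fold of 11.8, where no summit near the 9 hemidesmosome and laminin genes had a fold above 5.84 in that list. Dsg2, Dsg3 and Dsg4 share that summit, so these genes are not independent. Dsc2 and Dsc3, which encode desmosomal cadherins too, share a summit with a fold of 9.60. The strongest summits by q near Pkp1, Dsc1 and Perp, also desmosome genes, had folds of 5.41, 5.11 and 3.08 in that list, within or below the range near the 9 genes. The difference between the sets of genes was not tested.

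The counts were repeated under other rules, each beside the share of all genes. After Nkx2-1 deletion, 2 of the 9 had a summit inside the gene (4.42% of all genes), 2 within 10 kb (6.47%) and 5 within 100 kb (20.7%), where Cd151 is added. Counting a summit only for its nearest gene left 3 (8.51%), since the Col17a1 summit falls in Slk, and leaving out regions found in every list left 4 (12.9%). In the ectopic Sox2 library the count was 0 inside (0.439%), within 10 kb (0.736%), within 100 kb (2.45%), for the nearest gene (1.02%), at the higher q (1.18%) and outside regions found in every list (1.21%). In wildtype it was 1 inside (1.01%), 1 within 10 kb (1.37%), 2 within 100 kb (4.66%), 1 for the nearest gene (2.19%) and 2 outside regions found in every list (2.55%).

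**Figure D5:**
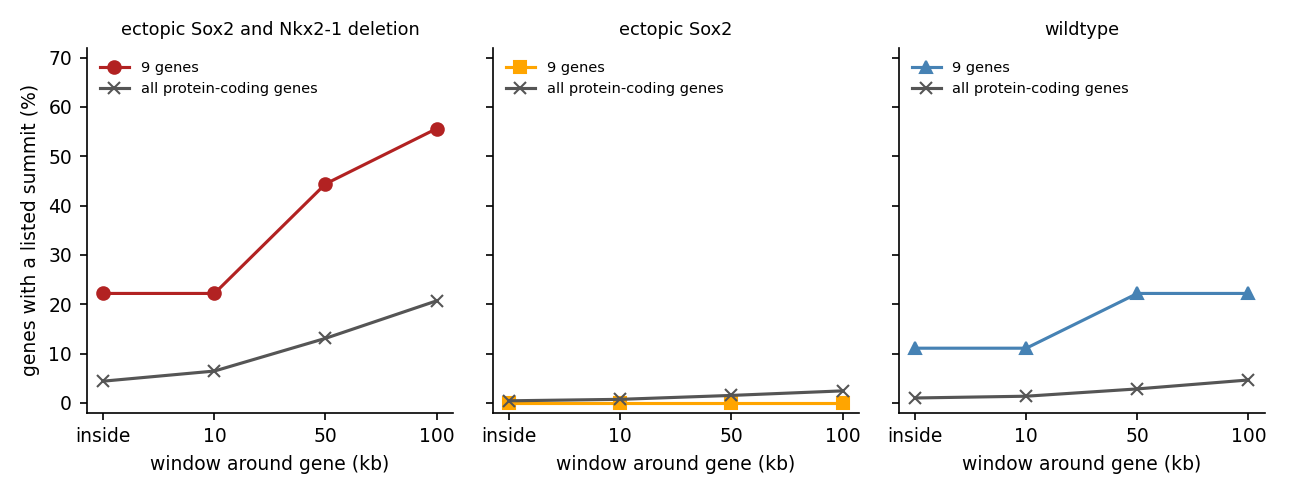
Percentage of the 9 hemidesmosome and laminin genes (coloured) and of all protein-coding genes (grey) with a listed summit inside the gene or within 10, 50 or 100 kb, in the 3 libraries. With Nkx2-1 deletion the 9 genes run from 22.2% inside to 55.6% within 100 kb, against 4.42% and 20.7% of all genes. With ectopic Sox2 they stay at 0.

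RefSeq promoter windows (GRCm38.p6) were found for 5 of the 9 genes, Dst, Lamb3, Cd151, Itga3 and Col17a1, with 9 starts in all. No listed summit fell in any of these windows. Lama3, Itga6, Itgb4 and Plec had no window, so their promoters were not checked. The 250 bases before each start were searched on both strands. The Sox motif ACAAAG was in 2 of the 9 windows, 1 each of Dst and Itga3, against 16.5% of 32851 windows. The Nkx2-1 motif CACTTG was also in 2, 1 each of Lamb3 and Col17a1, against 11.6% of all. The second Sox motif searched, ACAATG, was in none of the 9, against 10.7% of all. The Fox motif TGTTTAC was likewise in none, against 3.17%, and so was the AP-1 motif TGANTCA, against 6.75%. A match is a description of the letters and not a bound site. The windows of the 2 genes that had a summit nearby are printed 5′ to 3′ on the gene's strand, to show the promoters from which the summits were distant, with the first Sox motif and the Nkx2-1 motif, on either strand, in capitals. The Col17a1 window is chr19:47692043-47692292 (minus strand). The Dst window, of the lower of its 2 starts with a window, is chr1:34011345-34011594 (plus strand).
Col17a1: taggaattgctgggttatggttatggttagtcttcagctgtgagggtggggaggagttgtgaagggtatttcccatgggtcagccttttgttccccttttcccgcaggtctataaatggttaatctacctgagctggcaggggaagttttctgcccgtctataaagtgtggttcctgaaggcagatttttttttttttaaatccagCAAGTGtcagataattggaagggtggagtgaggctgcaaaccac
Dst: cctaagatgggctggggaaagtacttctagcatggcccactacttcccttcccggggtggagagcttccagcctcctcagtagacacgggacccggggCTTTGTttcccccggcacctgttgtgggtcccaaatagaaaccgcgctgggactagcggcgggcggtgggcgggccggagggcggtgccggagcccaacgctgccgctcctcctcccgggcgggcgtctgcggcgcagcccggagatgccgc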

How the data were processed

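Sox2 ChIP-seq peak lists of 3 libraries were analysed, 1 per condition. Input and IgG libraries were not used. Per the submitters' processing notes, Bowtie2 2.2.9, SAMtools 1.4, MACS2 2.1.1, HOMER 4.8.3 and mm10 were used. The control used, the cutoff and the handling of duplicates were not given in the sources used here. Each library has its own list, deposited by the authors, and none was pooled. For every summit the deposited lists hold positions, a score, −log10 p, −log10 q and the fold, a ratio to the local control. Positions count from 0 in the authors' lists and from 1 here, and each summit of a region was counted.

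The ChIP pileup and the control value at a summit were solved from its fold and −log10 p, given a pseudocount of 1 in the fold and a Poisson upper tail for p. Pileups were whole fragments times 1 scale per library (0.423 with Nkx2-1 deletion, 0.638 with ectopic Sox2, 0.741 in wildtype), within a tolerance of 0.02. The solution was unique for 96.6%, 96.1% and 97.5% of summits in that order, and for every summit printed here with fragments. The method was tested on simulated lists. Depth is the genome-wide control value divided by the scale and is not a read total.

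Genes were 21887 protein-coding spans of RefSeq GRCm38.p6. Overlap was counted with bedtools 2.31.1 at 1 bp or more. The 9 genes and the 4 wider lists were chosen with earlier results of these data known. Alternatives were windows of 10 and 100 kb, the nearest gene only, −log10 q of at least 5, leaving out regions found in all 3 lists, and stricter overlap. Counts inside the gene span and the scaling to another depth were added after the data were seen. Named genes are the 9, the protein-coding genes that share their summits, leading genes of the wider lists by q, and some further genes of those lists. 1 gene of the wider lists is not reported here and was left out of their counts.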

Additional observations from a re-analysis of the deposited data

How the results depend on the processing

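The counts of the 9 genes depend on the window and on weak summits. With Nkx2-1 deletion, 4 had a summit within 50 kb (13.1% of all protein-coding genes, with shares under each rule in brackets below). Within 10 kb 2 had one (6.47%), and inside the gene 2 (4.42%, added after the data were seen). At the higher q (−log10 q of 5 or more) 1 had one (8.83%). Counting nearest genes gave 3 (8.51%), a window of 100 kb gave 5 (20.7%), and leaving out regions found in every list gave 4 (12.9%). In wildtype, where 2 had one (2.85%), 1 had one within 10 kb (1.37%), 1 inside the gene (1.01%) and 1 by nearest gene (2.19%). The wildtype count was 2 within 100 kb (4.66%), at the higher q (1.88%) and without regions found in every list (2.55%). With ectopic Sox2 it was 0 under each of these settings (0.439% to 2.45%). Of the 79 wider list genes pooled, 32 had a summit with Nkx2-1 deletion (13.1%). Within 10 kb 17 had one (6.47%), and by nearest gene 21 (8.51%). With ectopic Sox2 (3 genes, 1.53%) 1 had one within 10 kb (0.736%) and 2 by nearest gene (1.02%). In wildtype (6 genes, 2.85%) 2 had one within 10 kb (1.37%). Summits near the 9 genes that overlapped another list stayed at 0 with overlap of at least 50% of both regions, with summits within 100 bp, and at the higher q. Their median fold with Nkx2-1 deletion was 5.22 at the higher q, on 1 summit, and 5.56 within 10 kb, against 5.43. In wildtype it was 5.25 within 10 kb, on 1 summit, against 6.07. Fragments between libraries could not be rescaled, since no region near the 9 genes was shared. No paired analysis was possible because each condition has 1 library. The summits rest on 21 to 47 fragments each.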

Other observations

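Among 10 laminin chain genes, Lama3 and Lamb3 included, 6 were near a summit (50 kb or less) after Nkx2-1 deletion, 1 in the ectopic Sox2 library and 1 in wildtype, where the share of all protein-coding genes was 13.1% after Nkx2-1 deletion, 1.53% in the ectopic Sox2 library and 2.85% in wildtype. Of genes that span at least 200 kb, as Lama3 does, 34.2% were near a summit after Nkx2-1 deletion. The laminin counts were not matched for gene length. The wildtype gene was Lama3 and the ectopic Sox2 gene was Lamc1. With Nkx2-1 deletion summits lay inside Lama2, Lama4, Lamb1, Lamc1 and Lama3, and within 50 kb of Lama5. At Lamc1, which encodes the γ chain of most other laminins, 1 region inside the gene was listed in both ectopic Sox2 libraries, with 64 fragments (49.3 to 81.7) with Nkx2-1 deletion and 19 (11.4 to 29.7) with ectopic Sox2 alone. Scaled by depth, the ratio of Nkx2-1 deletion over ectopic Sox2 was 1.77 (exact binomial interval 1.05 to 3.13), and scaled by the median ratio at regions found in all 3 lists it was 1.34 (0.795 to 2.37), an interval that includes 1. These genes were grouped after their values were seen.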
